A study of Canis lupus familiaris with 14 samples.

Results

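Multi-exon genes that lie in gene-poor neighbourhoods of the dog genome were examined in whole blood RNA of dogs with lymphoma and of control dogs. A gene was included when its exons merged into 2 or more intervals and when at most 6 genes of the table, itself included, had their midpoint within 500000 bases of its own midpoint. Autosomes 2, 6, 8, 12, 13, 16, 20, 21, 26, 31, 35 and 36 were left out, so 26 chromosomes were covered. In all, 1210 of the 30951 genes of the table met these conditions, and they are called gene-poor genes below. The 14756 other multi-exon genes of the same 26 chromosomes, with more than 6 genes in the window, served as the comparison. Blood of 7 dogs labelled lymphoma (a tumour of lymphocytes) made up the disease group, and 7 libraries labelled non-lymphoma, condition control, made up the other. The series text speaks of non-lymphoma disease, so the controls need not be healthy. Breed, age, sex, treatment, lymphoma type and the state of the control dogs are not given in the sources used here. The labels do not tie libraries to animals further, and a p-value here reflects only how far these libraries scatter. Whole blood is a mixture of cells, and fewer cells of a type and less RNA per cell cannot be told apart in these data.

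As background, mammalian chromosomes alternate between gene-dense stretches, with short genes and short introns, and gene-poor stretches, with long introns and wide intergenic spaces. Gene-poor stretches are typically poorer in G and C, replicate late in S phase and often lie at the nuclear lamina. Many of their genes serve development, cell adhesion or the nervous system and are silent in blood, while others are broadly expressed genes with long introns. The files do not pair Ensembl identifiers with gene names, and none of the identifiers matched the reference gene table, so the genes are described by position in CanFam3.1 and by structure. Marker genes of blood cell types could not be looked up for the same reason, and no genome of this build was used here, so no sequence is shown.

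The gene-poor genes were long for their amount of exon. Their median span from first to last exonic base was 39890 bases, against 17383 bases for the other multi-exon genes, and spans ran from 245 to 1928532 bases. Exonic length went the other way, with medians of 1441 and 1707 bases, and the median number of exons was 4 against 6. Exons made up a median of 3.51% of the span in gene-poor genes and 10.3% in the others. The midpoint of the nearest other gene lay at a median distance of 113676 bases, against 25629 bases. The rule for inclusion favours such a difference by construction. Exons of 51 gene-poor genes (4.21%) overlapped exons of another gene, compared with 9.84% of the other multi-exon genes. A window holding the gene alone was found for 26 genes, while 455 of the 1210 sat at the upper limit of 6. Chromosome 22 held the most gene-poor genes (104), followed by chromosome 3 (100) and chromosome 1 (88), and chromosome 9 held the fewest (8).

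Totals of counts assigned to genes ran from 9845059 to 14831589 in the lymphoma group and from 13522628 to 21610927 among controls, and 6 of 7 lymphoma totals were below every non-lymphoma total. The 10 most abundant genes of each library took 30.9 to 49.8% of its counts in the lymphoma group and 16.6 to 41.9% among controls. Both quantities moved with the groups, and their part in the results below was not tested. Sample numbers had 5 digits in 9 libraries, 2 of them lymphoma. The labels do not call this a batch, and values within these 9 libraries are given where they bear on a result.

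Gene-poor genes were detected in blood less often than other multi-exon genes, and the mean number detected was lower in lymphoma. After every library was thinned to the smallest total, 31.7 ± 3.14% of the 1210 genes had at least 1 count in lymphoma and 45.8 ± 10.04% in the non-lymphoma group (mean ± SD, n = 7 each). In numbers, lymphoma libraries had 338 to 459 detected gene-poor genes with a median of 374, and non-lymphoma libraries 383 to 742 with a median of 587. The ranges overlapped, and 5 of 7 lymphoma libraries were below every non-lymphoma library. Non-lymphoma replicates 1 and 2, with 428 and 383 genes, lay within the lymphoma range, whereas replicates 3 to 7 had 521 to 742. For other multi-exon genes the shares were 61.2 ± 3.17% and 72.8 ± 7.44% (SD, n = 7 each), with the same pair of non-lymphoma libraries lowest in that group. Without thinning, the shares for gene-poor genes were 32.1 ± 3.33% and 52.5 ± 13.1%. Thinning equalised totals but not the share left over by the most abundant genes.

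**Figure D1:**
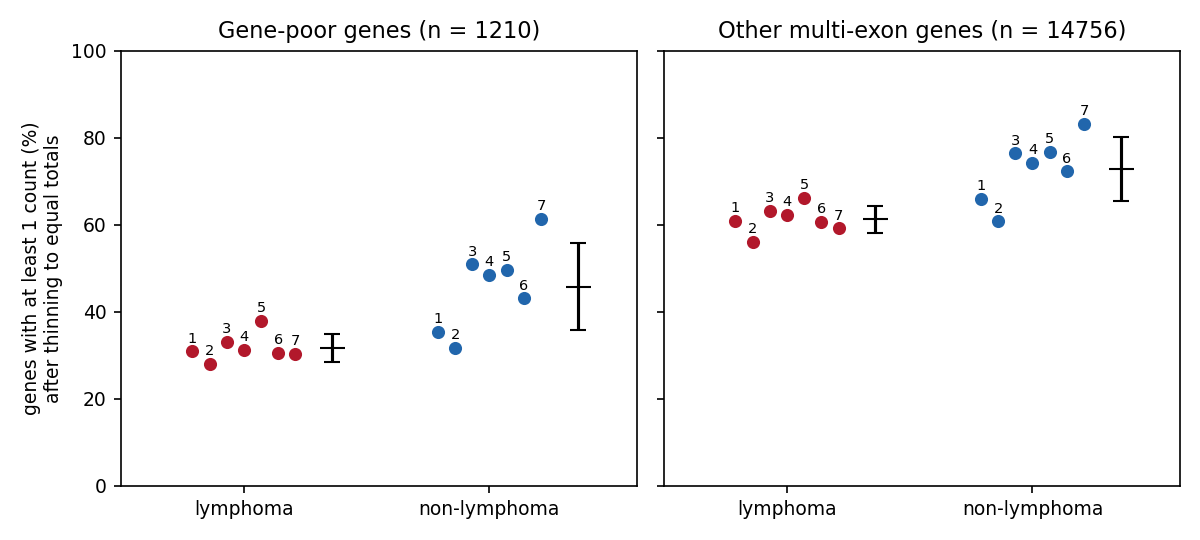
Percentage of genes with at least 1 count after thinning to equal totals, for gene-poor genes (left) and other multi-exon genes (right). Points are libraries numbered by replicate, bars are mean ± SD (n = 7); lymphoma libraries sit at 27.9 to 37.9% and non-lymphoma libraries at 31.7 to 61.3% on the left.

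Enough counts for a test were present for 272 gene-poor genes (22.5%), against 50.6% of the other multi-exon genes. Longer genes passed more often, from 15.8% of those spanning under 10 kb and 15.7% at 10 to under 30 kb to 40% of those spanning 300 kb or more. By exonic length the share went from 11.2% of those under 1 kb to 56.25% of those of 8 kb or more. Span and exonic length went together among tested gene-poor genes (Spearman's rho 0.67). The tested genes had a median span of 102434 bases, a median exonic length of 2335 bases and a median of 12 exons. The level at which a gene counts as expressed in the filter was 0.705 CPM, the count scaled to a common library size of 1000000, and 218 of the 272 reached it in all 14 libraries. None reached it in every library of one group and in no library of the other, but 25 reached it in all 7 libraries of one group only, 18 of these in non-lymphoma. Per kb of exon, the median level of tested gene-poor genes was 6.36 CPM, compared with 7.93 CPM in other multi-exon genes. They also varied more between libraries of a group, with a median biological coefficient of variation of 40.2% against 35.2%. In genes spanning 300 kb or more this coefficient was 50.4% for gene-poor and 40.4% for other genes.

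Among the 938 gene-poor genes that were not tested, 116 had no count in any library. Of the remaining 822, which averaged under 1 count per library at the median, 684 had the higher mean CPM in non-lymphoma blood and 138 in lymphoma. No count in any lymphoma library was recorded for 495 of them, and none in any non-lymphoma library for 14. Among 6919 other untested multi-exon genes with a count, these numbers were 2941 and 68. Counts were not thinned here while lymphoma totals were mostly smaller, and the part of library size in these zeros was not tested. Summed over all 938 genes, however, the level was 76.5 ± 25.8 CPM in lymphoma and 69.6 ± 24.3 CPM in the non-lymphoma group (mean ± SD, n = 7 each), with overlapping ranges. The direction of the single genes was much the same outside gene-poor neighbourhoods, where 77.8% of 6919 untested multi-exon genes with a count had the higher mean in non-lymphoma blood, against 83.2% of the gene-poor ones. Their sum, unlike that of the gene-poor genes, had the higher mean in the non-lymphoma group, 1020 ± 254 against 794 ± 153 CPM (SD, n = 7 each).

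The share of all counts on the 1210 genes was small in both groups. It ran from 0.896 to 1.13% with a median of 0.973% in lymphoma libraries, and from 0.968 to 1.23% with a median of 1.18% in non-lymphoma libraries. All 7 lymphoma libraries lay below the non-lymphoma median, but the ranges overlapped, and means were 1.02 ± 0.0956% and 1.15 ± 0.0912% (SD, n = 7 each). The difference of -0.13 percentage points was -0.0572 without genes whose exons overlap another gene. It was 0.00241 with a limit of 4 genes in the window, and 0.0777, the other direction, with at most 12 genes within 1000000 bases. As a share of the counts on multi-exon genes of placed chromosomes, the means were 1.4 ± 0.147% and 1.46 ± 0.0983%, closer together than the spread within either group. Counts were concentrated in few genes, and the 10 most counted gene-poor genes held 35.4% of the counts on the 1210.

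Which of these transcripts differ between the blood of dogs with and without lymphoma was the question of the group comparison. Of the 272 tested gene-poor genes, 36 rose and 14 fell in lymphoma by edgeR's quasi-likelihood test, at a Benjamini-Hochberg adjusted p under 0.05 over all tested genes. These are 13.2% higher and 5.15% lower, where 9.21% of all 12836 tested genes were called higher and 7.4% lower. Other multi-exon genes of the same chromosomes had 10% called higher and 6.65% lower. Before adjustment, 67 gene-poor genes had a p under 0.05 with a positive and 30 with a negative fold change. The median log2 fold change of tested gene-poor genes was 0.14 (quartiles -0.31 and 0.63), against -0.05 (quartiles -0.45 and 0.39) over all tested genes and -0.03 over the other multi-exon genes. A positive fold change was seen in 162 of 272 gene-poor genes (59.6%), compared with 47.3% of all tested genes. These medians hold for expressed genes: with every gene that had a count included, the median was -0.95 for gene-poor genes and -0.45 for all genes. The number of calls moved with the libraries and covariates used, and the cause was not tested. It dropped to 33 without either lymphoma replicate 5 or non-lymphoma replicate 6, to 3 within the 5-digit libraries and to 0 with the library total as a covariate, where 40 higher and 17 lower genes had an unadjusted edgeR p under 0.05 and 25 genes of the whole table were called. It was 51 with all libraries thinned to the smallest total and 50 with TMM factors computed without the 20 most abundant genes.

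Each library was summarised by the median, over the 272 genes, of log2 CPM minus the gene's mean across libraries. This median was 0.11 ± 0.11 in lymphoma and -0.09 ± 0.15 in the non-lymphoma group (mean ± SD, n = 7 each). It was above 0 in 6 lymphoma libraries and at -0.02 in lymphoma replicate 3, and non-lymphoma replicates 3 and 4 were also above 0, at 0.09 and 0.07. All 7 lymphoma libraries were above the non-lymphoma median and 3 above every non-lymphoma library, so the ranges overlapped. For other multi-exon genes the same medians were 0.01 ± 0.03 and 0.01 ± 0.02. Within the 5-digit libraries, the gene-poor medians were 0.06 and 0.29 in the 2 lymphoma libraries and -0.33 to 0.09 in the 7 non-lymphoma libraries.

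The shares of calls differed between classes of local gene number, and the poorest neighbourhoods were not the extreme (a description, with no test). With 7 to 12 genes in the window, 16.6% of 1572 tested multi-exon genes rose and 2.74% fell, and the median log2 fold change was 0.22. With 13 to 24 genes the shares were 12.1% and 4.85%, with 25 to 48 genes they were 3.93% and 10.1%, and with 49 to 78 genes 1.9% and 15.2%. The median fold change fell from 0.08 to -0.25 and -0.34 over these last 3 classes, while the median span of the tested genes fell from 33860.5 to 14427 and 9386 bases. At the limit of the rule, genes with exactly 6 genes in the window had 15 higher and 6 lower calls among 117 tested and a median of 0.18. Those with 7 had 21 higher and 5 lower calls among 175 and a median of 0.27. Inside the rule there was no trend with the number of neighbours (Spearman's rho -0.01 between window count and log2 fold change over 272 genes, which share the same libraries), against -0.29 over the 7471 other multi-exon genes. The first value covers window counts of 1 to 6 only, with many ties, and the other covers 7 to 78, so they are not like measures.

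**Figure D2:**
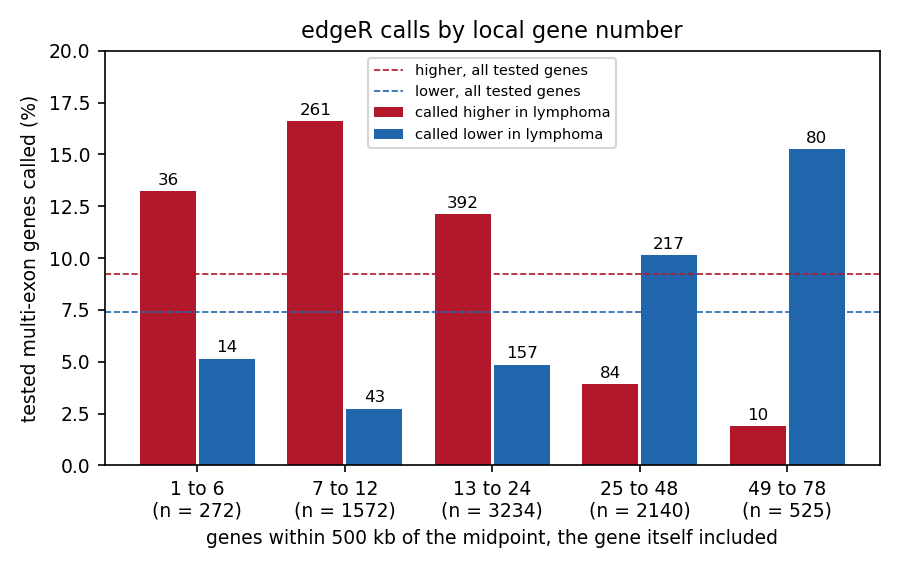
Percentage of tested multi-exon genes of the 26 chromosomes called higher (red) or lower (blue) in lymphoma by edgeR, by the number of genes within 500 kb. Numbers above bars are genes called and dashed lines are the shares among all tested genes; gene-poor genes (1 to 6) have 13.2% higher and 5.15% lower, and the balance turns from 25 genes upward.

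Gene span was set beside this pattern, since span and gene number go together. Gene-poor genes spanning under 10 kb had 4 higher and 7 lower calls among 54 tested, with a median log2 fold change of -0.01. Those of 30 to under 100 kb had 12 higher calls (23.5%) and 1 lower call (1.96%) among 51, with a median of 0.26. Those of 100 to under 300 kb had 14 (19.7%) and 4 (5.63%) among 71, with a median of 0.29. Other multi-exon genes had 16.3% higher and 5.01% lower at 30 to under 100 kb, and 14.3% and 4.44% at 100 to under 300 kb. At 300 kb or more the median of gene-poor genes was 0.22, and 3 of 66 (4.55%) were called, all higher. Other multi-exon genes under 10 kb likewise had more lower (9.27%) than higher (2.95%) calls, and those of 300 kb or more had 11.97% higher and 2.11% lower. In each of the 5 span classes the gene-poor median lay above that of other multi-exon genes, by 0.09 to 0.21, and the gap was widest for the shortest genes, where the other genes had -0.22. The difference of mean fold changes between gene-poor and other genes was 0.13 over all genes and 0.09 when taken within span classes and averaged over the gene-poor genes. No test is given for these differences. With each library's trend of expression on span removed, 33 gene-poor genes were higher and 16 lower, and 39 of these 49 were among the 50 called without that step. Removing the trend was chosen after the data were seen.

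**Figure D3:**
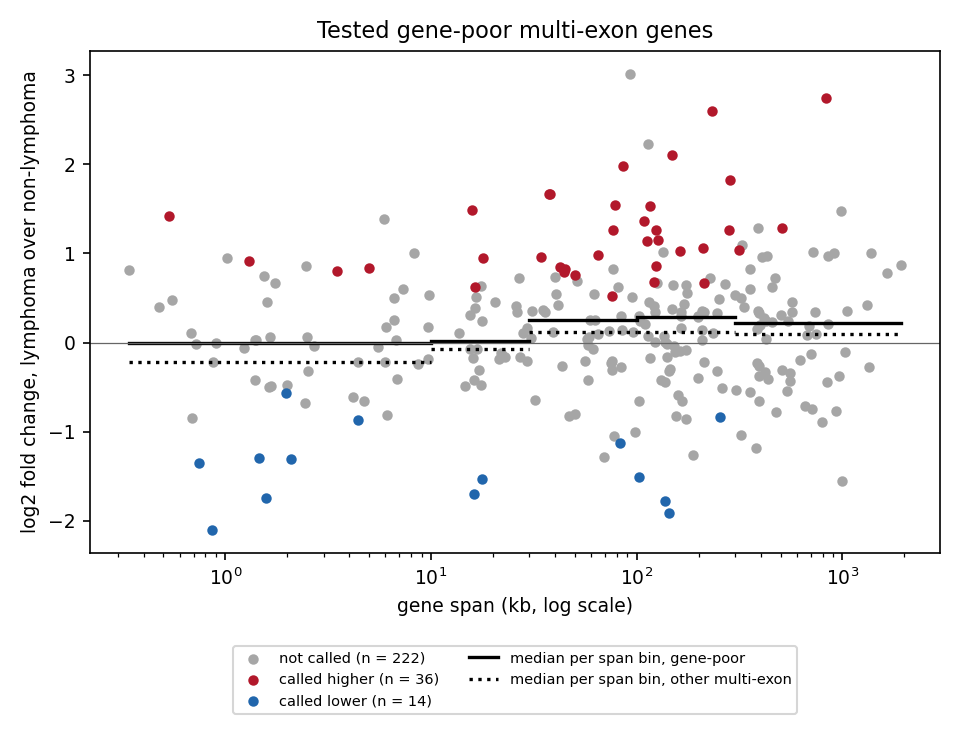
Log2 fold change of each tested gene-poor gene against its span on a log axis, coloured by edgeR call. Lines are medians per span class for gene-poor genes (solid) and other multi-exon genes (dotted); solid lines lie above dotted ones in all 5 classes, and 26 of the 36 called rises span 30 to under 300 kb.

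Exonic length ordered the fold changes of gene-poor genes about as weakly as span did. Spearman's rho over the 272 genes, which share the same libraries, was 0.08 for each, while over the 7471 other multi-exon genes it was 0.21 for span and 0.02 for exonic length. The highest median among gene-poor genes was that of 2 to under 4 kb of exon, 0.34, where other genes of that length had -0.01. In this class 19 of 99 tested gene-poor genes (19.2%) were higher and 1 (1.01%) was lower, against 11.4% and 6.72% of the other genes. Genes with under 1 kb of exon had a median of -0.03, with 3 higher and 6 lower calls among 41. Those of 8 kb or more had -0.55, below the 0.07 of other genes of that length, in a class of only 9 tested genes with 2 higher calls and 1 lower call. Taken within length classes, the difference of means between gene-poor and other genes was 0.13, the same as without classes. With each library's trend on exonic length removed, 37 gene-poor genes were higher and 13 lower, and 47 of these 50 were among the original calls.

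The median span of the genes that rose was below the 102434 bases of all tested gene-poor genes, and that of the genes that fell was lower still. The 36 rises had a median span of 82204.5 bases, a median exonic length of 2789.5 bases and a median fold of 2.14, and they lay on 18 chromosomes. The 14 falls had a median span of 10330 bases, a median exonic length of 1120.5 bases and a median fold of 2.69, on 10 chromosomes. Lymphoma and non-lymphoma ranges did not overlap for 4 of the rises and 3 of the falls, which are 1.47% and 1.10% of the 272 tested genes. Over all tested genes these shares were 2.03% higher and 1.75% lower, so the gene-poor genes did not exceed the background. Exons overlapped another gene in 4 rises and 1 fall. Every leave-one-out fit kept 22 of the 36 rises and 6 of the 14 falls. Among the 21 chromosomes with at least 5 tested gene-poor genes, 18 had a median fold change above 0, so a positive median was not limited to 1 chromosome. Chromosome 10 had 4 rises and 3 falls among 11 tested genes, and chromosome 28 had 3 rises and no fall among 6.

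The largest rise was that of ENSCAFG00000011725, a gene of 32 exons spread over 833123 bases at 25768697 to 26601819 of chromosome 28. Its level was 4.82 to 141 CPM in lymphoma, with a median of 40.4, and 1.36 to 11.9 CPM in non-lymphoma libraries, with a median of 7.73. A single lymphoma library fell inside the non-lymphoma range and the other 6 lay above it. The log2 difference was 2.75 (SE 0.54; adjusted p = 0.00563 by edgeR), and 1.52 within the 5-digit libraries (edgeR adjusted p = 0.283). ENSCAFG00000009850, with 79 exons at 805455 to 1038273 of chromosome 34, had 1.04 to 14.5 CPM in lymphoma (median 5.46) and 0.491 to 1.42 CPM in non-lymphoma libraries (median 0.786). All 7 lymphoma libraries were above the non-lymphoma median and 2 of them lay inside the non-lymphoma range, and the log2 difference was 2.60 (SE 0.51; adjusted p = 0.00551 by edgeR). Within the 5-digit libraries it was 0.91 (edgeR adjusted p = 0.38).

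Of the 10 largest rises, the most abundant was an 11-exon gene at 18345811 to 18383092 of chromosome 1. It ran at 298 to 1588 CPM in lymphoma (median 568) and at 122 to 347 CPM in non-lymphoma blood (median 264). The log2 difference was 1.66 (SE 0.36; adjusted p = 0.00822 by edgeR), and only the lowest lymphoma library lay inside the non-lymphoma range. A 12-exon gene at 24373603 to 24481583 of chromosome 15 separated the groups completely, at 43.2 to 141 CPM (median 55.7) against 21.7 to 37.2 CPM (median 25.8), a log2 difference of 1.36 (SE 0.26; adjusted p = 0.00472 by edgeR). An 18-exon gene at 26569488 to 26655361 of chromosome 17 had medians of 48.4 and 12.5 CPM, with 6 of 7 lymphoma libraries above the non-lymphoma median and a log2 difference of 1.98 (SE 0.47; adjusted p = 0.0119 by edgeR). A 16-exon gene at 16088184 to 16166718 of chromosome 18 had medians of 26.9 and 10.3 CPM (log2 fold change 1.55, SE 0.32, edgeR adjusted p = 0.00686). A 45-exon gene of chromosome 22 at 46309326 to 46591803, whose exons overlap another gene, had medians of 12.9 and 2.75 CPM (log2 fold change 1.83, edgeR adjusted p = 0.0159). The weakest of the 10 in its p was an 8-exon gene at 12883385 to 12899197 of chromosome 4, with medians of 27.3 and 9.96 CPM. Its call (log2 fold change 1.49, edgeR adjusted p = 0.029) was lost when any of 5 libraries was left out: replicates 2 and 7 of lymphoma, and replicates 2, 5 and 6 of non-lymphoma. The calls of the other 9 held in all 14 leave-one-out fits. None of the 10 was called within the 5-digit libraries. All 10 fold changes were positive there, but these libraries also served to pick the genes, so the sign is not independent of that choice.

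**Figure D4:**
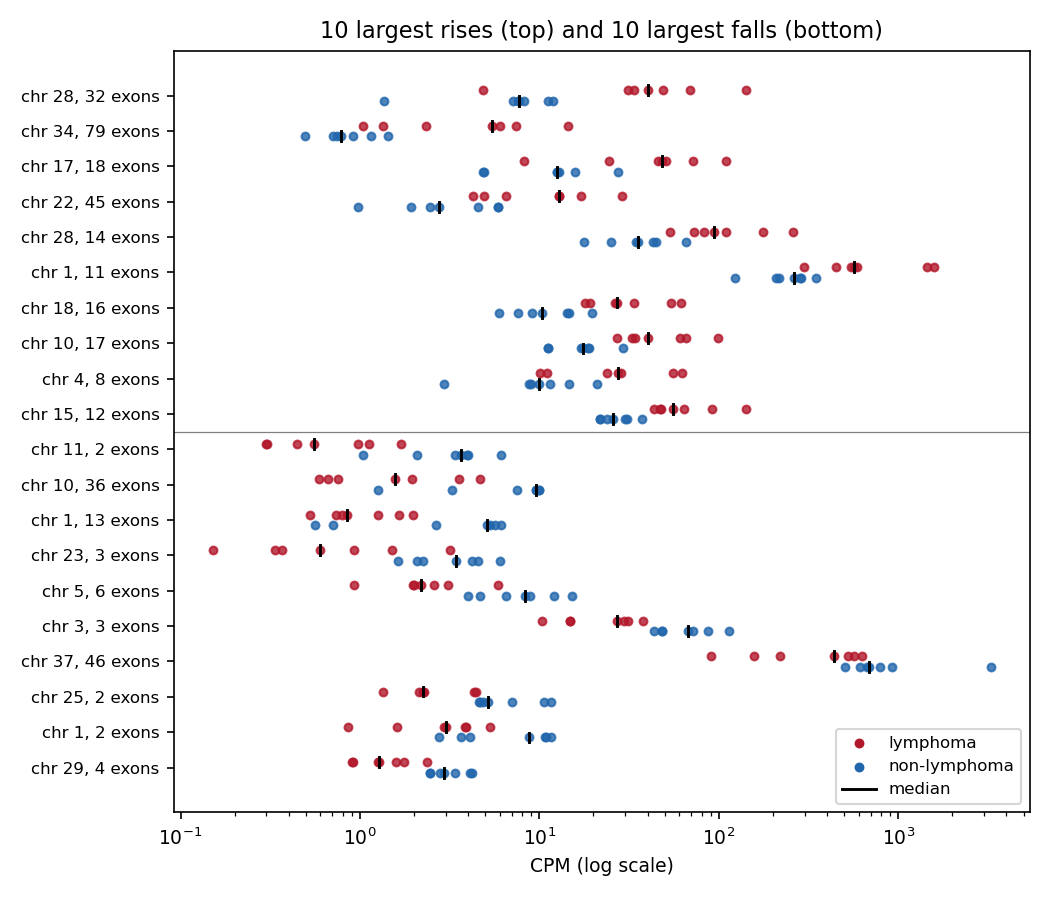
CPM on a log axis in each library for the 10 largest rises (above the line) and 10 largest falls (below it) among gene-poor genes, named by chromosome and number of exons; vertical marks are group medians (n = 7). The groups separate fully for the 12-exon gene of chromosome 15 above, and below for the 3-exon gene of chromosome 3, the 2-exon gene of chromosome 25 and the 4-exon gene of chromosome 29.

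Falls were led by ENSCAFG00000006896, a 2-exon gene with 270 exonic bases at 71712849 to 71713713 of chromosome 11. It had 0.3 to 1.68 CPM in lymphoma (median 0.553) and 1.03 to 6.11 CPM in non-lymphoma libraries (median 3.65), a log2 difference of -2.11 (SE 0.44; adjusted p = 0.00692 by edgeR). Raw counts were 2 to 20 per lymphoma and 19 to 127 per non-lymphoma library. The lymphoma median lay below the filter level of 0.705 CPM, so this gene passed the filter through the non-lymphoma group. ENSCAFG00000000446, with 36 exons at 12241716 to 12384435 of chromosome 10, had 0.589 to 4.65 CPM (median 1.57) against 1.26 to 9.97 CPM (median 9.54), a log2 difference of -1.91 (SE 0.52; adjusted p = 0.0218 by edgeR). In both, the ranges overlapped while all 7 lymphoma libraries were below the non-lymphoma median. The groups were fully apart for 3 of the falls, all with few exons. A 3-exon gene at 8236 to 25824 of chromosome 3 had 10.3 to 37.6 CPM in lymphoma (median 27.1) and 43.7 to 113 CPM in non-lymphoma blood (median 67.0), a log2 difference of -1.53 (SE 0.30; adjusted p = 0.0051 by edgeR). A 2-exon gene at 21741698 to 21742440 of chromosome 25 had medians of 2.26 and 5.19 CPM (log2 fold change -1.35, edgeR adjusted p = 0.0124). A 4-exon gene at 24878963 to 24961380 of chromosome 29 had medians of 1.27 and 2.95 CPM (log2 fold change -1.13, edgeR adjusted p = 0.0137).

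A 46-exon gene at 22420428 to 22523123 of chromosome 37 was the second most counted gene-poor gene, with 6.99% of the counts on the 1210, and its exons overlap another gene. It had 89.9 to 629 CPM in lymphoma (median 439) and 502 to 3275 CPM in non-lymphoma blood (median 684). The highest value was that of non-lymphoma replicate 2, and without it the log2 fold change moved from -1.51 (SE 0.49, edgeR adjusted p = 0.0458) to -0.89 (edgeR adjusted p = 0.124). In 8 other leave-one-out fits the call was lost as well. Its mean share of all counts was 0.0336 ± 0.019% in lymphoma and 0.109 ± 0.0796% in the non-lymphoma group (mean ± SD, n = 7 each), a difference of -0.0751 percentage points where all 1210 genes together differed by -0.13 points. Without non-lymphoma replicate 2 these differences were -0.0458 and -0.123 points. Of the remaining falls, the 6-exon gene at 71965500 to 71981735 of chromosome 5 held its call in every leave-one-out fit (medians 2.19 and 8.34 CPM, log2 fold change -1.70, edgeR adjusted p = 0.00941). The 13-exon gene at 89480399 of chromosome 1 (-1.78), the 3-exon gene at 25759091 of chromosome 23 (-1.75) and the 2-exon gene at 87109450 of chromosome 1 (-1.30) lost theirs in 6, 8 and 9 of the 14 such fits. The chromosome 23 gene had 1 to 43 raw counts per lymphoma library, and its lymphoma median of 0.6 CPM lay below the filter level. None of the 10 falls was called within the 5-digit libraries. All 10 fold changes were negative there, in libraries that also served to pick the genes.

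Of the 5 gene-poor genes with the highest level per kb of exon, 1 was called. Per kb of exon, the most abundant gene-poor gene was the rising 11-exon gene of chromosome 1, with 382 ± 250 CPM per kb in lymphoma and 120 ± 35.1 in the non-lymphoma group (mean ± SD, n = 7 each). The next 4 were not called. A 2-exon gene at 58853343 to 58854742 of chromosome 15 had 222 ± 90.8 and 217 ± 88.3 CPM per kb, a log2 difference of 0.03 (SE 0.29; adjusted p = 0.947 by edgeR). A 17-exon gene spanning 622982 bases from 45208671 of chromosome 19 had 180 ± 54.1 and 205 ± 60.0 CPM per kb (-0.19, SE 0.23, edgeR adjusted p = 0.583). A 17-exon gene at 25115842 of chromosome 30 had 111 ± 41.7 and 176 ± 98.3 (-0.66, SE 0.31, edgeR adjusted p = 0.141). The 35-exon gene from 34279932 of chromosome 15 had 104 ± 32.8 and 142 ± 49.6 (-0.45, SE 0.26, edgeR adjusted p = 0.238). Levels of these 4 overlapped between the groups.

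None of the 4 longest or the 4 most isolated tested gene-poor genes was called. The longest tested gene had 19 exons and 1928532 bases at 6744744 to 8673275 of chromosome 24. By midpoints it was also among the most isolated, with the nearest other midpoint 656080 bases away. That distance lies within its own span, and another gene overlaps this span. The longest gene had 1.11 to 5.31 CPM in lymphoma (median 3.67) and 0.435 to 2.93 CPM in non-lymphoma libraries (median 1.37). Its log2 difference was 0.87 (SE 0.43, edgeR adjusted p = 0.159). The 18-exon gene at 17372245 to 19017093 of chromosome 4 had medians of 1.12 and 0.747 CPM (0.78, SE 0.32, edgeR adjusted p = 0.101), and all 7 lymphoma libraries were above the non-lymphoma median. The 23-exon gene from 11056447 of chromosome 15 and the 16-exon gene from 13355503 of chromosome 32 had log2 fold changes of 1.01 (SE 0.59) and -0.27 (SE 0.47). Of the other isolated genes, with no further gene in the window, the one at 20782867 of chromosome 37 had medians of 13.7 and 5.19 CPM (1.01, SE 0.47, edgeR adjusted p = 0.142). Those at 23452985 of chromosome 27 and 72299157 of chromosome 5 had 0.19 (SE 0.31) and -0.38 (SE 0.17, edgeR adjusted p = 0.131). In total, 4 of the 26 genes alone in their window were tested, and 3 of the 4 fold changes were positive.

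Fold changes of neighbouring gene-poor genes shared a sign as often as not. Among 96 pairs of tested gene-poor genes with midpoints within 500000 bases, 48 (50%) had fold changes of the same sign. In 5 pairs both genes were called, 4 of them in the same direction. On chromosome 10, a 17-exon gene at 58521552 to 58637482 (40.3 against 17.4 CPM at the median, log2 fold change 1.54, edgeR adjusted p = 0.00484) rose with a 15-exon gene of the other strand at 58431978 to 58544189 (20.6 against 8.82 CPM, 1.14, edgeR adjusted p = 0.00938). Exons of both overlap another gene, and the counting used no strand, so their reads may not be separable. On chromosome 28, a 14-exon gene at 368513 to 406401 (94.1 against 35.2 CPM, 1.67, edgeR adjusted p = 0.00692) rose with a 17-exon gene at 67065 to 216086 (1.86 against 0.491 CPM, 2.10, edgeR adjusted p = 0.0226). The latter was also called within the 5-digit libraries (3.13, edgeR adjusted p = 0.0197) but lost its call without lymphoma replicate 5 (edgeR adjusted p = 0.0514). The 2 lymphoma libraries of that subset, replicates 5 and 6, had its highest levels (3.6 and 4.97 CPM) and also served to pick it. Its ranges overlapped, at 0.303 to 4.97 CPM in lymphoma and 0.176 to 0.822 CPM in non-lymphoma libraries. The non-lymphoma median lay below the filter level of 0.705 CPM, with 4 to 16 raw counts per library. On chromosome 23, an 8-exon gene at 15911942 to 15946265 had separate ranges, 25.1 to 55.2 against 16.1 to 23.4 CPM (0.96, SE 0.18, edgeR adjusted p = 0.00472). The gene of the other strand at 15913487 to 16034782 had 0.69 (edgeR adjusted p = 0.0465), a call lost in 11 of 14 leave-one-out fits. The spans of these chromosome 23 genes overlap, while their annotated exons do not, and the counting used no strand. In the remaining named pair, on chromosome 10, the directions were opposite. The 24-exon gene at 5510022 to 5634202 rose without overlap, at 110 to 234 against 63.6 to 105 CPM (0.86, SE 0.19, edgeR adjusted p = 0.00825). The 15-exon gene at 5818588 to 6072251 fell from a median of 50.1 to 32.1 CPM (-0.83, SE 0.28, edgeR adjusted p = 0.0498), a call lost in 11 of 14 leave-one-out fits.

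Large fold changes without a call also occurred, and 3 were picked after their values were seen. A 5-exon gene at 26182876 to 26275883 of chromosome 29 ran from no count to 32.4 CPM in lymphoma (median 0.0922) and from no count to 1.77 CPM in controls (median 0.786). Its log2 difference was 3.02 (SE 1.20; adjusted p = 0.0884 by edgeR), while the medians went the other way, since lymphoma replicate 1 held the highest value and the next reached 9.93 CPM. A 9-exon gene at 56974692 to 57088039 of chromosome 7 had 0.455 to 50.4 CPM (median 12.4) against 0.14 to 9.32 CPM (median 2.58), with overlap, and a log2 difference of 2.23 (SE 0.81; adjusted p = 0.0674 by edgeR). A 20-exon gene at 68492022 to 69489255 of chromosome 5 was lower, at 0 to 6.01 CPM (median 1.65) against 1.20 to 12.4 CPM (median 4.63), with overlap and a log2 difference of -1.56 (SE 0.65; adjusted p = 0.104 by edgeR).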

How the data were processed

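Raw counts per gene were deposited by the authors as 1 table, made per the file headers with featureCounts 2.0.1 on read pairs over exons of the Ensembl release 103 annotation of CanFam3.1, with no strand option. Per the submitters' processing notes HISAT2 2.2.1 and Subread 2.0.1 were used. Library selection is not given in the sources used here. The exonic length column is the authors' merged exon length, per the file headers, and equals the merged intervals used here.

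All 12836 genes kept by filterByExpr were fitted with edgeR 4.0.16 (TMM factors, glmQLFit, group only) in R 4.3.3, with Benjamini-Hochberg adjustment at 0.05. CPM use TMM-scaled totals, log2 CPM a prior count of 2, and SEs are the fold change over the square root of F. On simulated counts of 12591 tested genes, edgeR called 27 of 96 genes given a log2 change of 1, 82 of 96 given 2 and 7 of 12399 given none. Named genes were the 10 largest rises and falls among called genes with an average log2 CPM of at least 1 and 6 of 7 lymphoma libraries on one side, the 5 most abundant per kb, the 4 longest, the 4 most isolated and the 4 pairs of called neighbours with the lowest p. Of tested members, 34 rises and 13 falls met the first condition. The genes, classes and tests were chosen with earlier results of these data known. Alternatives used DESeq2 1.42.0 and limma 3.58.1, other factors, filters, covariates, windows and subsets. Python 3.11.15 with numpy 2.4.6, pandas 2.3.3, scipy 1.17.1 and matplotlib 3.10.9 served the other steps.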

Additional observations from a re-analysis of the deposited data

Results flagged for a closer look

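In 2 of 84 sets of 7 values, 1 library stood well away from the other 6, and about 1 set in 20 (4.2 here) would do so by chance. Distance is given as the step to the next value over the full range. In the 32-exon gene of chromosome 28 starting at 25768697 it was 0.753 for non-lymphoma replicate 7, whose log2 CPM of 0.58 was the lowest beside 2.85 to 3.595 in its group. In the 46-exon gene of chromosome 37 starting at 22420428 it was 0.678 for non-lymphoma replicate 2, the highest at 11.68 beside 8.97 to 9.84.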

How the results depend on the processing

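The median fold change of gene-poor genes and its excess over other multi-exon genes stayed within 1 SD between libraries (0.13 for each) under every alternative except that without a filter on low counts, which gave -0.95 and -0.55. That SD is close to the median itself (0.14). The median was 0.06 in the 5-digit libraries, 0.07 by DESeq2, 0.08 with upper-quartile factors, 0.24 with multi-exon neighbours only and 0.25 with 1000000 bases either side, and the excess (0.17) reached 0.28. With 1 library left out they ran from 0.116 to 0.179 and from 0.149 to 0.211. Calls then numbered 33 to 54, with 25 to 41 higher and 6 to 14 lower. There were 6 lower calls without lymphoma replicate 1 or 5, 7 without lymphoma replicate 4, 8 without non-lymphoma replicate 6, and 9 without non-lymphoma replicate 2 or 5. DESeq2, which tested 400 gene-poor genes, called 78 (56 higher, 22 lower), all 50 edgeR calls among them. Without a filter 28 were lower. The 5-digit libraries gave 3 calls (3 higher, 0 lower by edgeR; unadjusted, 41 higher and 16 lower), and the library total as a covariate gave 0 (0 higher, 0 lower). Other definitions change the number of genes by construction: 18 calls (15 higher, 3 lower) with 4 or fewer genes in the window, 117 (95, 22) with 8 or fewer, 114 (91, 23) with multi-exon neighbours only, and 49 (40, 9) of 210 tested with 1000000 bases either side and 12 or fewer genes. For the share of counts, the difference of -0.13 percentage points became 0.00241, -0.358, -0.266 and 0.0777 under these definitions in the same order. It was -0.16 to -0.11 with 1 library left out.

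With the label's number as a replicate block, edgeR called 24 gene-poor genes (17 up, 7 down), and 21 were among the 50. Same-numbered libraries did not deviate together (correlations from -0.337 to 0.345, over 0.1 in 1 of 7 pairs), and 1 of 7 lymphoma libraries correlated best with its own number. Of the 37 named genes, only 26 were called in the main fit. All 26 lost their call with the library total as a covariate, 25 of the 26 in the 5-digit libraries and 10 with the replicate block. No named gene was called in the opposite direction under any alternative run, but runs with few calls could hardly show that. The filter near 0.705 CPM kept 272 gene-poor genes, and without it 1094 were tested and 65 called by edgeR.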
